A study of Homo sapiens with 2 samples.

Results

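The genes described here are 9 genes of red cell antioxidant defence and gas transport, PRDX2, CAT, GPX1, GPX4, SOD1, TXN, CA1, CA2 and AHSP. They were followed through their peaks of H3K27ac, acetylated lysine 27 of histone H3, a mark of active promoters and enhancers. Peaks were taken when they lay within 1 kb of an end of the gene record, called gene-end peaks, or within 50 kb of the record. The 9 genes are part of 20033 protein-coding genes of the RefSeq table, and 29 of 28832 peaks lay near them. All cells were F36P, an established human erythroid leukaemia line. In the group called ERG, cells carried the plasmid MSCV-PIG-AM-ERG and are labelled as overexpressing ERG, an ETS-family transcription factor; what AM stands for was not established here. The group called Vector carried MSCV-PIG alone and is labelled as wild type. Both were selected with 1 µg/ml puromycin for 4 days, and each group held 1 library, called the ERG sample and the Vector sample. No difference below has a replicate check, and every comparison is between these samples, not between the conditions.

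Red cells carry oxygen on haemoglobin, and the iron of haemoglobin continually gives rise to superoxide. Superoxide dismutase (SOD1) turns superoxide into hydrogen peroxide, which catalase (CAT), glutathione peroxidases (GPX1) and peroxiredoxins (PRDX2) then remove. Thioredoxin (TXN) returns peroxiredoxins to their reduced form, and GPX4 reduces peroxides of membrane lipids. Carbonic anhydrases CA1 and CA2 interconvert carbon dioxide and bicarbonate, and AHSP, the alpha-haemoglobin stabilising protein, is a chaperone that holds free alpha-globin and limits its oxidative damage. CA1 and AHSP are known as genes switched on during erythroid maturation, whereas several of the antioxidant genes are transcribed in most cells.

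The ERG list held 19671 peaks and the Vector list 9161. A peak list does not give read totals, but the number of fragments at each summit and its local background could be recovered from the deposited fold and p-value. The lowest background was 2.31 fragments in the ERG sample and 1.60 in the Vector sample, so the ERG sample was taken as 1.44 times deeper. Of 10 erythroid marker genes, 7 were marked at an end in both samples and 1 in the ERG sample alone; HBA1 and HBA2, the alpha-globin genes, had none. Of 15 markers of other blood cells 2 were marked in both and 3 in the ERG sample alone, and 0 of 6 neuronal and fibroblast markers in either. The shares across the 20033 genes were 30.2% (both), 15.6% (ERG sample alone) and 53.8% (neither).

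Start-site windows were printed for the members with an entry in the RefSeq promoter table, 5 of the 9. Gene-end peaks can be placed against these windows at all of the 5 but PRDX2, which had no such peak. Each window runs from 250 bases before the start site to 50 bases from it, 300 bases in all, on the strand of the gene in GRCh38.p14, whose chromosomes are numbered as in hg38. Capitals mark motif matches, named after the sequences.
TXN, chr9:110256458-110256757, minus strand: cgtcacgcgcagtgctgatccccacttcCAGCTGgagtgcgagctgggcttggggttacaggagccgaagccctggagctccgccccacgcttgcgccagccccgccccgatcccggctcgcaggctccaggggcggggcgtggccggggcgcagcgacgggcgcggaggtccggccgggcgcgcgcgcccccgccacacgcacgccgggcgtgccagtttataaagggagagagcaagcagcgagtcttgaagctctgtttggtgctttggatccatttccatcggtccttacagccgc
CAT, chr11:34438684-34438983, plus strand: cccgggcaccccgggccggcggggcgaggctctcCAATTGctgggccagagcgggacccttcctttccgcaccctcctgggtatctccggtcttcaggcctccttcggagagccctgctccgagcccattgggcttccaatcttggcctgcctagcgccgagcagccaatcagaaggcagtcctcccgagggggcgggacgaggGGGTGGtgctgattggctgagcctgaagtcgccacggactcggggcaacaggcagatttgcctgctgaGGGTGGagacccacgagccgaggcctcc
GPX1, chr3:49358304-49358603, minus strand: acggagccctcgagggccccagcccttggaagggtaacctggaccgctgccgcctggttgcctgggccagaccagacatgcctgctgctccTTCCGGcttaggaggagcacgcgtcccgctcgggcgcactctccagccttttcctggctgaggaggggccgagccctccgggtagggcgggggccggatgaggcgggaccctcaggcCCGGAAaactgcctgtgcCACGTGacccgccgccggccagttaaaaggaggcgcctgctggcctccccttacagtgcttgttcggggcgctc
GPX4, chr19:1104400-1104699, plus strand, the last of its 3 listed starts: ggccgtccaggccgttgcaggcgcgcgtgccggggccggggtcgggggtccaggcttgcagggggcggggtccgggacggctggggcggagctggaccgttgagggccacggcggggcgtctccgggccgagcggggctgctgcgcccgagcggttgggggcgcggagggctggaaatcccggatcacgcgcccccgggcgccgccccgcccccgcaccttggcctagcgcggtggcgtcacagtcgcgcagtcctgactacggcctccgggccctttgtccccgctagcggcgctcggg
PRDX2, chr19:12801751-12802050, minus strand: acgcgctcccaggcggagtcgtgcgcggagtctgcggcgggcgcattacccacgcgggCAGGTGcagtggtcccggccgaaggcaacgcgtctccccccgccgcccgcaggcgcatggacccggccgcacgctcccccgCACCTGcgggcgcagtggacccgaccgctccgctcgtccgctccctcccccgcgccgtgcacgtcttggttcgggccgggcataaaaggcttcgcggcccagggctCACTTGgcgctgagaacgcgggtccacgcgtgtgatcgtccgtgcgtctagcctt

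All 5 windows were rich in G and C, from 68.0% in CAT to 79.0% in the printed GPX4 window (70.7% and 71.0% in its other windows), against a median of 62.3% over 22182 such windows of 15842 protein-coding genes. PRDX2 held 46 CpG dinucleotides, GPX4 43, TXN 34, GPX1 23 and CAT 20, against a median of 21. The GPX1 window lay wholly under the ERG-sample peak and had no base under the Vector-sample peak. At GPX4 the 3 starts differed. The printed window lay wholly under the Vector-sample peak and 82 of its bases under the ERG-sample peak. The first GPX4 window (1103744 to 1104043) had no base under either, and the second (1103807 to 1104106) had 8 under the ERG-sample peak and 0 under the Vector-sample peak. The ERG-sample peaks covered 75 bases of the CAT window and 39 of the TXN window, and the Vector-sample peak 38 bases of the CAT window. No base of the PRDX2 window was under a peak, although it held the most CpG dinucleotides of the 5 printed.

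Motifs were searched on both strands. The E-box CANNTG, a site of TAL1-type factors among others, was found in TXN (CAGCTG, first base at -222 from the start site, which is counted as 1), in GPX1 (CACGTG at -24), at 1 position of the catalase window (-216) and at 3 of PRDX2 (-192, -111 and -5); 65.1% of all windows hold it. The ETS core CCGGAA was found in GPX1 alone, at -42 and, on the other strand as TTCCGG, at -159; 21.2% of all windows hold it. The CACCC box CCACCC, bound by KLF factors, was found in CAT alone of the printed windows, on the other strand as GGGTGG at -46 and at 23; 37.7% of all windows hold it. The GATA site (the word AGATAA, the word AGATAG, the word TGATAA or the word TGATAG, in 20.0% of windows) was in none of the 5, nor was the antioxidant response element core TGACNNNGC (13.8%) or the AP-1 site TGANTCA (6.15%). None of the matches overlapped each other. A match is a description of letters, and no match says only that these letters are not in this window.

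The gene-end peak was found in both samples at most of the members. It was present in both at 6 of 9 (CAT, GPX1, GPX4, SOD1, CA2 and AHSP), against 30.2% of all protein-coding genes. In the ERG sample alone it was present at 2 of 9, TXN and CA1, against 15.6% of all genes. None of the 9 had it in the Vector sample alone, as is so for all but 0.354% of genes, and 1, PRDX2, had it in neither, against 53.8%. The map of peaks around each gene shows that the 9 loci differ widely in how many peaks they hold, from 1 at TXN to 5 at GPX1.

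**Figure D1:**
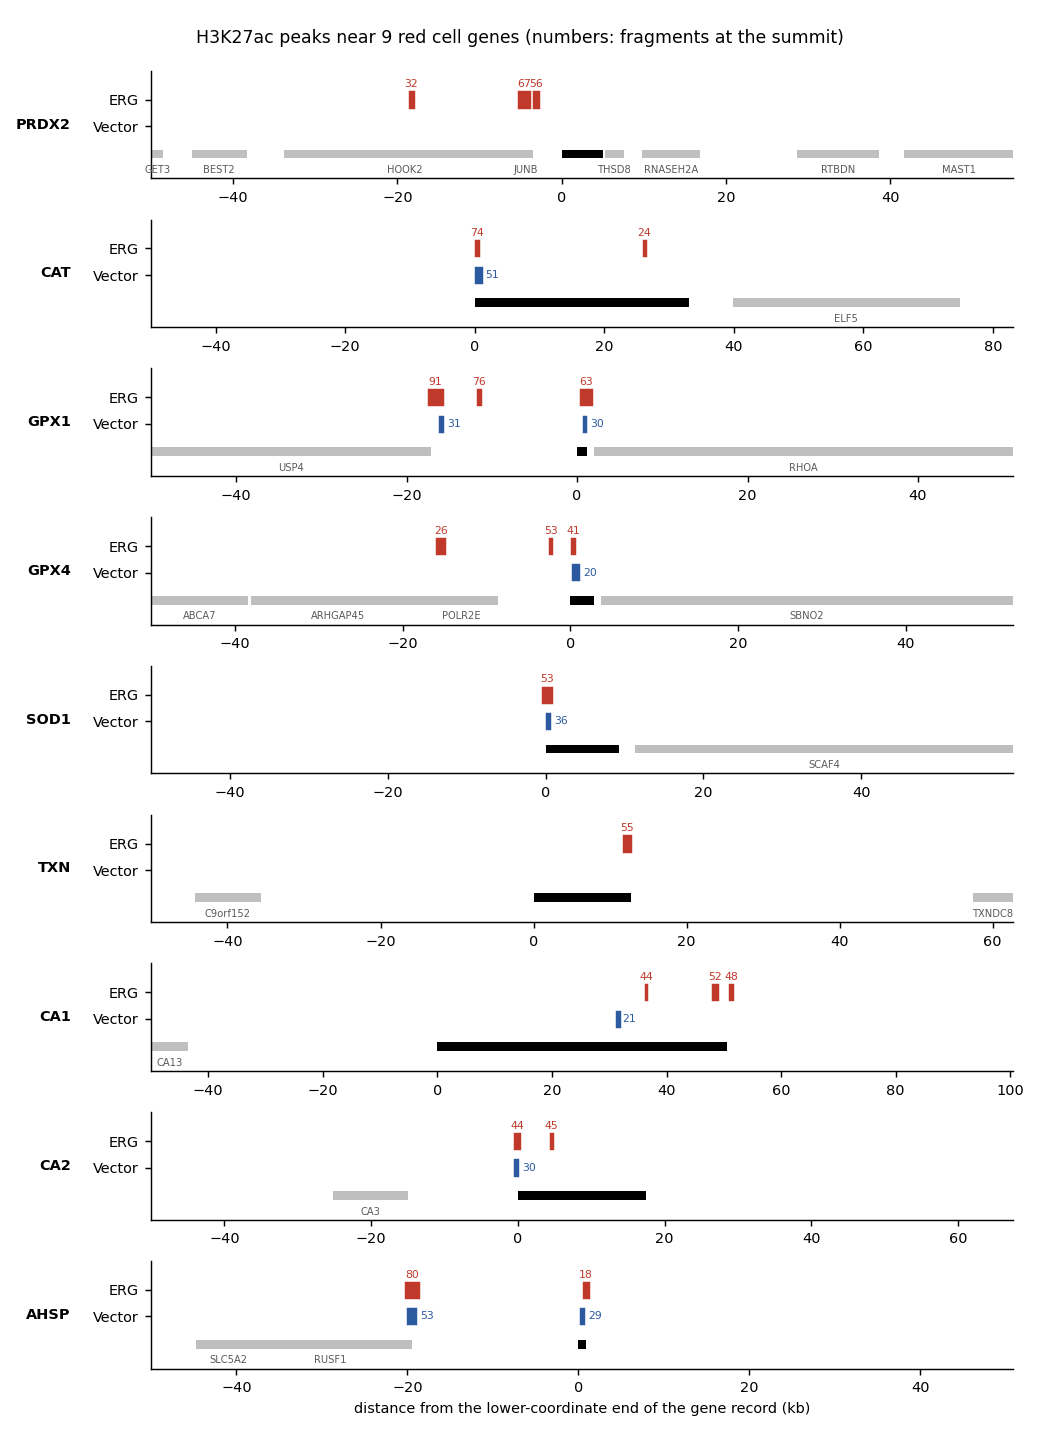
Peaks of the ERG sample (red) and the Vector sample (blue) around each gene, drawn to scale as distance in kb from the record's lower-coordinate end (the gene in black), with other protein-coding records in grey and the fragments at each summit as numbers. The ERG sample had 20 peaks and the Vector sample 9, and PRDX2 and TXN had none in the Vector sample.

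Among the enzymes that act on superoxide and peroxide, CAT had the strongest gene-end peaks of the 9 genes in both samples. CAT lies on chromosome 11 from 34438934 to 34472060. Its summit held 74 fragments in the ERG sample (34438909 to 34439516) and 51 in the Vector sample (34438946 to 34440096). Within their own lists these peaks were stronger by p-value than 82.4% and 87.9% of all peaks. The summits lay 267 and 165 bp into the gene from its start site. The ratio of fragments, ERG over Vector, was 1.45 (95% interval 1.00 to 2.12), which is 1.00 (0.694 to 1.47) after division by the depth ratio. The interval includes the depth ratio, and with the larger depth ratio of 1.68 from strong shared peaks the value is 0.866. The ERG-sample peak was the narrower, 608 against 1151 bp. A second ERG-sample peak, at 34464975 to 34465322 inside the gene and 6738 bp from its far end, had 24 fragments and no Vector-sample counterpart.

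SOD1, the copper and zinc enzyme of the cytosol, gave a like picture. The gene lies on chromosome 21 from 31659693 to 31668931, and its end peaks were at 31659294 to 31660445 in the ERG sample and 31659716 to 31660284 in the Vector sample. They held 53 and 36 fragments, with summits 269 and 305 bp inside the lower-coordinate end. The ratio was 1.47 (0.946 to 2.31), or 1.02 (0.655 to 1.60) relative to depth. Both peaks also overlap the record of the noncoding RNA gene SOD1-DT, so they cannot be assigned to SOD1 alone. No other peak lay within 50 kb of SOD1.

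GPX1 and GPX4, the selenium-containing glutathione peroxidases of the list, had larger ratios than CAT and SOD1, with intervals that overlap theirs. At GPX1 (chromosome 3, 49357176 to 49358353) the end peaks held 63 fragments in the ERG sample (49357472 to 49358893) and 30 in the Vector sample (49357866 to 49358255), a ratio of 2.10 (1.34 to 3.36) and 1.45 (0.928 to 2.33) relative to depth. The summits were 18 bp apart. At GPX4 (chromosome 19, 1103994 to 1106779) they held 41 fragments (1104099 to 1104481) and 20 (1104126 to 1104986), a ratio of 2.05 (1.17 to 3.69) and 1.42 (0.813 to 2.56) relative to depth. Both intervals include the depth ratio. Widths went in opposite directions. The GPX1 peak was wider in the ERG sample, 1422 against 390 bp, and the GPX4 peak narrower, 383 against 861 bp. The GPX1 peaks lie within 1 kb of an end of the neighbouring RHOA record as well, so they cannot be assigned to GPX1 alone.

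Around the glutathione peroxidase genes the ERG sample had further peaks. At GPX1 a peak beside USP4, a ubiquitin protease gene, was shared, with 91 fragments (49339669 to 49341491) against 31 (49340967 to 49341405). Its ratio of 2.94 (1.93 to 4.57) was 2.03 (1.34 to 3.16) relative to depth. This was the single shared pair near the 9 genes whose interval lay above the depth ratio of 1.44. The interval also includes 2.15, the median ratio over all genes with a shared end peak. The lower quartile of those genes, 1.81, is itself above the depth ratio, so a ratio above it is common. How many genes have an interval above it was not counted. Another, at 49345421 to 49345930 between USP4 and GPX1, had 76 fragments in the ERG sample and no counterpart. At GPX4 the ERG sample alone had a peak 2141 bp outside the record (1101482 to 1101853, 53 fragments) and one inside POLR2E, an RNA polymerase subunit gene (1088030 to 1089075, 26 fragments).

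PRDX2, among the most abundant proteins of the red cell, had no listed peak at its gene ends, in either sample. The gene lies on chromosome 19 from 12796823 to 12801800. Its nearest peak, at 12793391 to 12794021 in the ERG sample with 56 fragments, ended 2802 bp from the record and lies within 1 kb of JUNB, an AP-1 transcription factor gene. A wider peak over JUNB and the end of HOOK2 (12791554 to 12793009) had 67 fragments, and one inside HOOK2 (12778214 to 12778798) had 32. None of these 3 had a Vector-sample counterpart, and they lie at or beside other genes, so they cannot be assigned to PRDX2. The local background was 25.3 and 22.2 fragments at the JUNB peaks and 9.19 at the peak inside HOOK2. It was 5.28 to 17.9 at the ERG-sample gene-end peaks of the other members. At their ERG-sample peaks away from the gene ends it ran from 5.35 (CAT) to 25.8 (GPX1), so the JUNB values were not outside that range.

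TXN was the antioxidant member whose gene-end peak was found in the ERG sample alone. The gene lies on chromosome 9 from 110243810 to 110256507, and the peak at 110255518 to 110256496 ended 11 bp inside the record, with its summit 364 bp into the gene from the start site. It held 55 fragments over a background of 8.75 and was stronger than 78.4% of the ERG list. Divided by the depth ratio these become 38 fragments over 6.06, with a −log10 p-value of 18.4, far above the lowest of the Vector list, 3.98. The Vector sample had no peak within 50 kb, and its nearest lay 1226 kb away. The region was sparse in both lists, as the next ERG-sample peak beyond 50 kb was 1080 kb away. A missing peak does not show that the promoter lacked acetylation, since the coverage at unlisted positions was not analysed here.

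**Figure D2:**
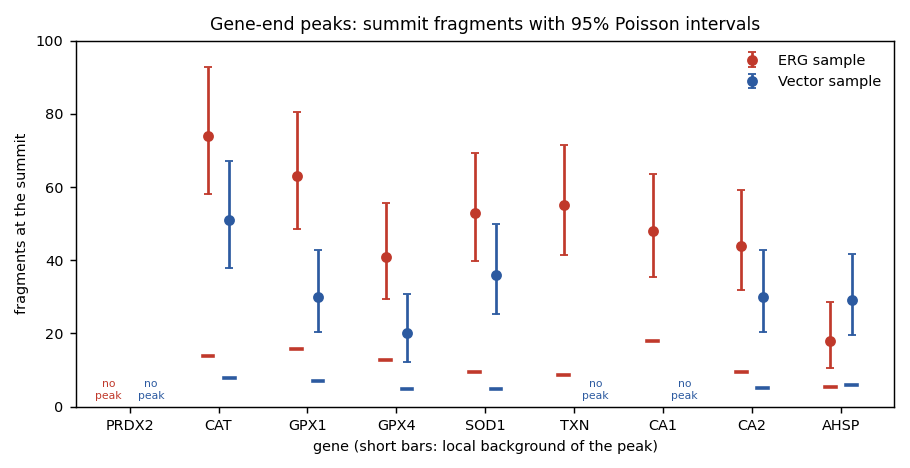
Fragments at the summit of each gene-end peak, in the ERG sample (red) and the Vector sample (blue), with 95% Poisson intervals for counting error and short bars at the local background. CAT is highest in both samples (74 and 51 fragments), and AHSP is the gene whose Vector-sample point lies above its ERG-sample point (29 against 18).

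The carbonic anhydrase genes stand 85.9 kb apart on chromosome 8 and differed in where peaks were found. CA2, the fast isoenzyme, had a shared gene-end peak. The gene runs from 85464007 to 85481493, and its end peaks held 44 fragments (85463442 to 85464319) in the ERG sample and 30 (85463434 to 85464049) in the Vector sample. Their summits lay 355 and 299 bp outside the lower-coordinate end. The ratio of 1.47 (0.902 to 2.42) was 1.02 (0.624 to 1.67) relative to depth. Both peaks overlap the record of the antisense RNA gene CA3-AS1. A second ERG-sample peak inside the gene, at 85468345 to 85468820, held 45 fragments, as many as the end peak within counting error, and had no counterpart.

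CA1, the abundant red cell isoenzyme, had its gene-end peak in the ERG sample alone. The gene runs from 85327608 to 85378113. The end peak, at 85378578 to 85379181, lay 465 bp outside the higher-coordinate end and held 48 fragments over a background of 17.9. It was stronger than 32.0% of the ERG list, so a weaker peak than that of TXN. Scaled to the Vector depth it had 33 fragments and a −log10 p-value of 6.52, above the lowest of the Vector list, though it was not among the 9161 strongest peaks of the ERG list. Inside the gene the ERG sample had peaks at 85375451 to 85376518 (52 fragments, 1595 bp from the end and so just outside the 1 kb window) and at 85363881 to 85364222 (44 fragments). The Vector sample had 1 peak there, at 85358701 to 85359389 with 21 fragments, stronger than 1.54% of its list. It was the single Vector-sample peak of the 9 with no ERG-sample overlap. The samples thus had no listed site of CA1 in common.

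AHSP was the member with fewer fragments in the ERG sample than in the Vector sample. The gene lies on chromosome 16 from 31527900 to 31528803 and is only 904 bp long, so its peaks lie near both ends. The ERG-sample peak, at 31528466 to 31529144, held 18 fragments and was stronger than 6.65% of its list. The Vector-sample peak, at 31528161 to 31528605, held 29 fragments and was stronger than 51.9% of its list. The ratio of 0.621 (0.325 to 1.16) was 0.430 (0.225 to 0.801) relative to depth, the single interval of the 6 that lay below the depth ratio. The local backgrounds were 5.28 and 6.01 fragments, so the background, too, was not higher in the ERG sample here. Of 6019 genes with a shared end peak and recovered fragments, 50 had a ratio below 1, which is 0.831%, and 1 gene had a lower ratio than AHSP. Scaled to the depth of the Vector sample and rounded, the ERG-sample peak had 12 fragments. Its −log10 p-value was then 3.93, just under the lowest of the Vector list, 3.98.

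The AHSP peaks were also displaced from each other. The Vector-sample summit lay inside the gene, 443 bp from its higher-coordinate end, whereas the ERG-sample summit lay 265 bp beyond that end. The summits were 708 bp apart and the peaks overlapped by 140 bp, so that the Vector-sample summit was not under the ERG-sample peak. At the other 5 shared members the summits were 18 to 125 bp apart, and the median over all genes was 65 bp. A distance of 708 bp or more was found at 2.53% of genes. The AHSP ratio therefore compares the highest point of each library near the gene, not the same nucleosome. A strong shared peak at the end of RUSF1, 18604 bp from AHSP, did not show this. It held 80 fragments (31507678 to 31509296) and 53 (31507896 to 31508863), a ratio of 1.51 (1.05 to 2.18) and 1.05 (0.730 to 1.51) relative to depth, with summits 15 bp apart. The difference between the RUSF1 and AHSP ratios was not tested.

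All 6 shared members had a ratio below the median of all genes. Their own median was 1.47 and their range 0.621 to 2.10, whereas the median over all 6019 genes was 2.15 with quartiles of 1.81 and 2.56. CAT, CA2 and SOD1 lay at percentiles 8.27, 8.74 and 8.89 of that distribution, GPX4 and GPX1 at 42.2 and 45.9, and AHSP at 0.0166. The intervals of CAT, CA2, SOD1, GPX4 and GPX1 overlap each other. Those of CA2, SOD1, GPX4 and GPX1 include the median of all genes. Those of CAT and AHSP lie below it, CAT narrowly, with an upper limit of 2.12. The ERG peak was the narrower one at 2 of 6 (CAT and GPX4), against 4.75% of all genes with such a pair.

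**Figure D3:**
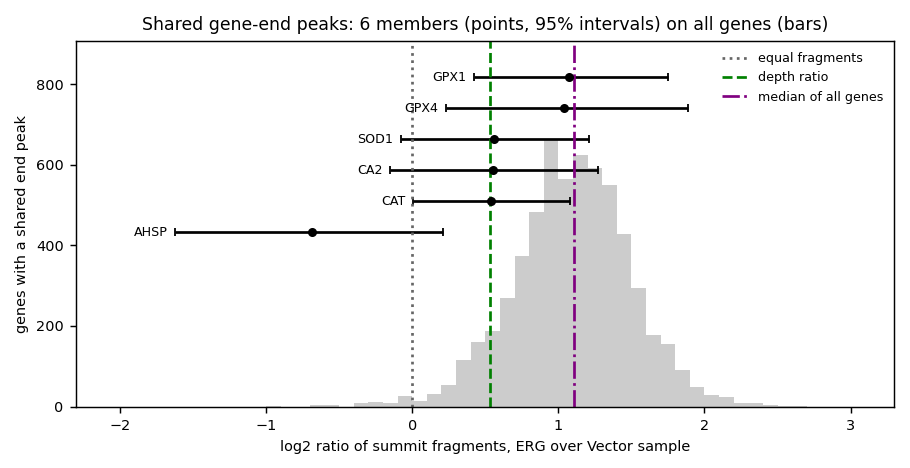
Distribution of the log2 ratio of summit fragments (ERG over Vector sample) over the 6019 genes with a shared gene-end peak (grey bars), with the 6 shared members as points with 95% intervals for counting error, at arbitrary heights. Vertical lines mark equal fragments, the depth ratio of 1.44 and the median of all genes, 2.15; the CAT, CA2 and SOD1 points lie near the depth ratio, GPX1 and GPX4 near the median, and the AHSP point lies left of all lines.

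The length covered by peaks within 50 kb was greater in the ERG sample at 8 of 9 members, against 72.4% of all genes. A further 5250 genes had equal lengths in both, and of the 14783 that differed 98.1% had the greater length in the ERG sample, a share that 8 of 9 does not exceed. It was largest at GPX1, with 3755 bp in the ERG sample against 829 bp in the Vector sample, and next at PRDX2, with 2672 against 0 bp. AHSP had 2298 against 1413 bp, CA1 2014 against 689, GPX4 1801 against 861, CA2 1354 against 616, SOD1 1152 against 569 and TXN 979 against 0. CAT was the exception, with 956 against 1151 bp, as is so for 1.42% of all genes. The median difference, ERG minus Vector, was 940 bp over the members. It was 776 bp over all genes, of which most have no end peak, and 1411 bp over the 9249 genes with an end peak in either sample, as 8 of the 9 members have. At GPX1, PRDX2, GPX4 and AHSP this length includes peaks at other genes.

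**Figure D4:**
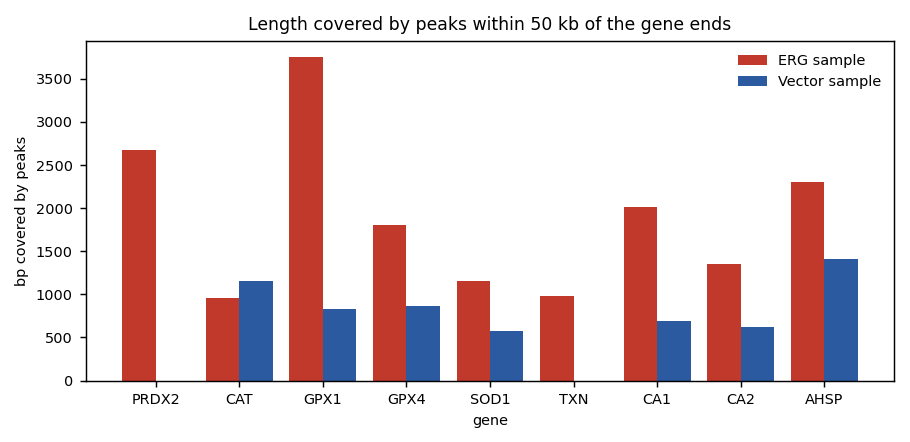
Length in bp covered by peaks within 50 kb of the gene ends, for the ERG sample (red) and the Vector sample (blue). The ERG-sample bar is the taller at every gene but CAT (956 against 1151 bp), and PRDX2 and TXN have no Vector-sample bar.

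Of 48 other antioxidant genes, 26 had an end peak in both samples, against 30.2% of all protein-coding genes. Another 9 had it in the ERG sample alone (15.6% of all genes) and 13 in neither (53.8%). The 9 were PRDX1 and PRDX5 (peroxiredoxins), GPX7, GLRX2 (a mitochondrial glutaredoxin), TKT (transketolase), NQO1 (quinone reductase), CYB5R3 (the enzyme that reduces methaemoglobin through cytochrome b5), MSRA and MSRB1 (methionine sulfoxide reductases). Their strongest end peak held from 19 fragments (NQO1) to 104 (PRDX5). Among the 26 shared genes the median ratio was 2.10, near that of all genes, and 0 lay below 1. The lowest ratios were those of SOD2, the mitochondrial superoxide dismutase (51 against 40 fragments, 1.27, interval 0.826 to 1.98), GCLM (1.28) and GLRX5 (1.32). The highest were those of TXNIP, which binds thioredoxin (84 against 29, 2.90, 1.88 to 4.58), the ferritin gene FTH1 (2.89) and the cystine transporter gene SLC7A11 (2.84).

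Of 18 other carbonic anhydrase and gas transport genes, 3 were marked at an end in both samples, against 30.2% of all protein-coding genes. Another 3 were marked in the ERG sample alone (15.6% of all genes) and 12 in neither (53.8%). CA13, the neighbour of CA1, held 80 against 33 fragments (2.42, 1.60 to 3.76), and RHAG, a gas channel gene of the red cell membrane, 52 against 24 (2.17, 1.31 to 3.68). CA8, a carbonic anhydrase-related gene, held 22 against 23 (0.957, 0.508 to 1.80). CA11, the anion exchanger gene SLC4A2 and BPGM, which makes the bisphosphoglycerate that lowers oxygen affinity, had the peak in the ERG sample alone, with 94, 37 and 22 fragments.

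**Figure D5:**
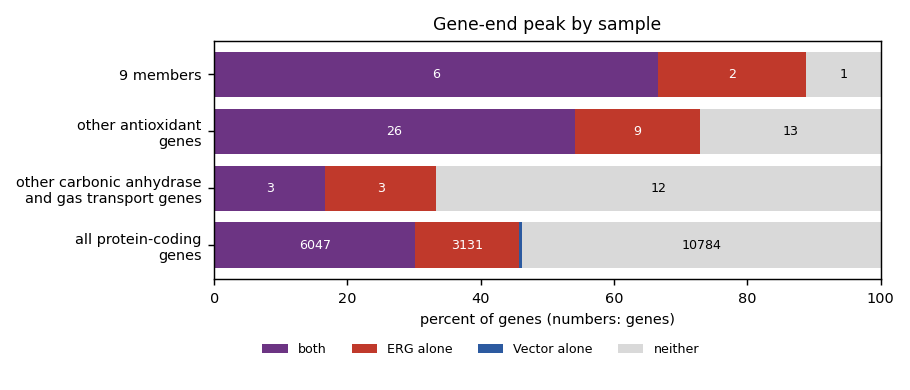
Share of genes with a gene-end peak in both samples, in 1 of them or in neither, for the 9 genes, the 48 other antioxidant genes, the 18 other carbonic anhydrase and gas transport genes and all 20033 protein-coding genes. Numbers inside the bars are genes. The shares with a peak in both are largest for the 9 genes (6 of 9) and the other antioxidant genes (26 of 48).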

How the data were processed

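Each of the 2 deposited files is a peak list of 1 library, called separately; hg38, Bowtie2 alignment, MACS2 and deepTools are named in the submitters' processing notes. Settings, input library and duplicate handling are not given in the sources used here. Per the labels' protocols, chromatin was fixed with 1% formaldehyde and cut with micrococcal nuclease. The deposited fold (a ratio) relates the summit to its local background, the deposited −log10 p-value is the peak caller's, as is the deposited −log10 q-value, and the deposited score follows the q-value. The lowest −log10 q-value was 1.31 (ERG) and 1.32 (Vector). The deposited summit position was used for distances.

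Fragments and background were recovered from fold and p-value with the formulas of MACS2 (relative error below 0.0001 for 99.9% of peaks of each library and for all 29 near the members) in Python 3.11.15 with scipy 1.17.1. This gives precision from counting alone, and reads without molecular identifiers are not independent molecules, so all intervals (exact conditional for ratios, exact Poisson for fragments, 95%) cover counting error only. Where a gene had several shared end peaks, the pair with most fragments was taken. The calculation was tested on simulated data. Records came from RefSeq GRCh38.p14; all 9 members and both other lists matched in full. Peaks were shared when they overlapped by 1 bp. With 1 library per group no test was made and no p-value between groups is given. Exons were not analysed here. Members and lists were chosen with earlier results of these data known. Named were all members, the genes at their peaks and, of the other lists, genes with an end peak in 1 library and the 3 highest and 3 lowest ratios. Alternatives varied windows, thresholds, list length, overlap and depth.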

Additional observations from a re-analysis of the deposited data

How the results depend on the processing

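The counts of gene-end peaks were the same with a 2.5 kb window. The overlap rule does not enter these counts, so it could not change them. When an overlap of at least 50% of the narrower peak was required, AHSP no longer had a shared pair. Its peaks overlapped by 140 bp, and the narrower was 445 bp wide. With a deposited −log10 q-value of at least 5, the peak was in both samples at 4 members and in the Vector sample alone at 1, AHSP. In the upper 50% of each list, 3 members had it in both, 3 in neither and 1 only in the Vector sample. With the ERG list shortened to its strongest 9161 peaks, 1 had it in the ERG sample alone (TXN), 2 in the Vector sample alone (GPX4 and AHSP) and 2 in neither (CA1 joining PRDX2). After thinning of the ERG sample to the Vector depth, 1 (AHSP) had it in the Vector sample alone. Its thinned −log10 p-value of 3.93 was just under the 3.98 required. Thinning here means that fragments were divided by the depth ratio and rounded to a whole number, with no reads drawn. A margin this small can depend on the rounding. TXN kept its peak in the ERG sample alone, and PRDX2 had none, under all of these.

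The median depth-scaled ratio was 1.02 and ran from 0.877, with the depth ratio from 124 strong shared peaks (1.68), to 1.02 under the others. The q-value, upper 50%, list-length and overlap settings changed no member's ratio and only removed members, AHSP among them. The median then rested on 4 members with the stricter q-value, 3 in the upper 50% and 4 with the shortened ERG list. Its steadiness under these settings is therefore no separate check. AHSP had 0.430, and 0.370 with that depth ratio; it had no value where its ERG-sample peak or its pair was lost. The median covered-length difference of 940 bp became 738 bp with a 10 kb window, 755 bp with the stricter q-value, 372 bp in the upper 50% and 206 bp with the shortened ERG list. The difference (ERG minus Vector) turned to -106 bp at GPX4 with a 10 kb window, and to -489 bp at GPX4 and -689 bp at CA1 with the shortened ERG list. These follow from fewer peaks entering. No paired analysis was possible because each group holds 1 library and the labels carry no replicate numbers. Leaving out a replicate was not possible for the same reason. The weakest listed peak had 9 fragments in the ERG sample and 8 in the Vector sample, and positions with weaker signal are not listed in either.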

Other observations

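Other erythroid genes were also found among the 50 genes with fewer fragments at a shared end peak in the ERG sample than in the Vector sample (chosen after their values were seen). TFR2, a transferrin receptor gene of erythroid cells and liver, had 26 against 38 fragments, a ratio of 0.684. HBG2, a fetal globin gene, had 37 against 48, a ratio of 0.771 with an interval of 0.488 to 1.21. Its near-identical copy HBG1 makes the assignment of its reads uncertain. Genes with no such role were there too, among them TNFRSF1B, a receptor gene of tumour necrosis factor, with 15 against 29 and the lowest ratio of all, 0.517, CTSB, a lysosomal protease gene, with 18 against 28, and CDC16, a subunit gene of the anaphase-promoting complex, with 37 against 54. TAL1 had 211 against 89 fragments, a ratio of 2.37 (1.84 to 3.07) that lay above the depth ratio of 1.44. KLF1 had 72 against 46, a ratio of 1.57 (1.07 to 2.32), an interval that includes the depth ratio. Most genes with a shared end peak had a ratio above 1.44, as the median was 2.15 with quartiles of 1.81 and 2.56. TAL1 lay between the median and the upper quartile, and KLF1 below the lower quartile. Whether erythroid genes are over-represented among the 50 was not tested.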
